A study of Mus musculus with 16 samples.

Results

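The inflammatory CC chemokines described here are Ccl2, Ccl3, Ccl4, Ccl6, Ccl7 and Ccl9. They were taken by gene symbol, and each symbol matched 1 gene of the 10920 genes in the deposited tables. All 6 passed the filter on low values, as did 9891 genes in all. The data are RNA sequencing of bone marrow-derived mouse macrophages in 4 groups of 4 libraries. Sirt3 K223R macrophages were studied with IL-4 and without it, and wild-type macrophages likewise. Sirt3 is a mitochondrial deacetylase, and in K223R a lysine of the protein is replaced by arginine. The sources used here do not give how that allele was made or in which cells of the mouse it is present. All mice were C57BL/6 and 8 weeks old, and every culture received M-CSF, the macrophage growth factor, at 20 ng/ml over 7 days. IL-4, a cytokine that drives alternative (M2) activation, was given at 20 ng/ml for 24 hours. The labels do not say whether the 4 replicates came from separate mice, so p-values here reflect sample-to-sample spread that may be technical.

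CC chemokines are small secreted proteins, named for a pair of adjacent cysteines, that draw leukocytes toward their source by binding G protein-coupled receptors. Ccl2 and Ccl7 are monocyte chemoattractants that act through Ccr2, Ccl3 and Ccl4 are macrophage inflammatory proteins, and Ccl3 and mouse Ccl6 and Ccl9 act through Ccr1. In macrophages Ccl2, Ccl3 and Ccl4 are known as genes switched on quickly by NF-kB after a microbial signal, and their mRNAs are known to be short-lived.

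All 6 genes lie on chromosome 11 in 2 clusters (GRCm38). Ccl2 (ENSMUSG00000035385.5, 82035571 to 82037453, plus strand) and Ccl7 (ENSMUSG00000035373.2, 82045712 to 82047525, plus strand) are 8259 bp apart. Ccl9 (ENSMUSG00000019122.8, 83572919 to 83578636, minus strand) and Ccl6 (ENSMUSG00000018927.3, 83587882 to 83593087, minus strand) are 9246 bp apart. Ccl3 (ENSMUSG00000000982.5, 83647844 to 83649355, minus strand) follows 54757 bp beyond Ccl6. Ccl4 (ENSMUSG00000018930.3, 83662584 to 83664683, plus strand) follows 13229 bp beyond Ccl3.

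AU-rich elements in the 3' UTR, built from the pentamer ATTTA, are known from many short-lived cytokine mRNAs. For 5 of the members, the richest window of 30 bases in the 3' UTR is shown here as DNA, 5′ to 3′, from the GENCODE M21 transcript with the longest 3' UTR, with the pentamers in capitals.
Ccl3: ttgaaattttATTTAATTTAatcctattgg
Ccl6: ttatagatATTTAaagcATTTAtccttctg
Ccl9: gtccATTTAtacagtggatctcATTTActg
Ccl2: taatattaaacttATTTAacttattgatgt
Ccl7: tattaatatttttATTTAattagccatgta
Over the whole 3' UTR, Ccl3 had 5 pentamers in 409 bases, or 12.2 per kb, a density reached by 0.446% of the 8528 tested genes with an annotated 3' UTR. Ccl4 had 2 in 302 bases (6.62 per kb, reached by 2.83%). Ccl7 had 2 in 435 bases (4.598 per kb, reached by 7.66%) and Ccl6 4 in 943 bases (4.24 per kb, reached by 9.22%). Ccl2 had 1 in 275 bases (3.64 per kb, reached by 13.4%), and Ccl9 had 5 in 2465 bases (2.03 per kb, reached by 35.2%). The median gene had 1.34 per kb, so all 6 members lay above it in density, with Ccl3 and Ccl4 densest and Ccl9 least dense. By number the median was 2 pentamers, and the median 3' UTR length, taken separately, was 1144 bases. Ccl2 lay below that number, Ccl4 and Ccl7 at it, and Ccl3, Ccl6 and Ccl9 above it. The longer nonamer TTATTTATT was found in 0 of the 6, against 8.04% of these genes. Of the tested genes, 70.1% held at least 1 pentamer, which makes its presence alone a common feature.

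RefSeq promoter sequence matched 3 of the members, Ccl9, Ccl6 and Ccl3, and is shown because Ccl9 and Ccl6 were higher and Ccl3 lower with IL-4. The 250 bases before each RefSeq start (GRCm38.p6, minus strand) follow, 5′ to 3′, with motif matches in capitals. They span chr11:83578637-83578886 for Ccl9, chr11:83593088-83593337 for Ccl6 and chr11:83649379-83649628 for Ccl3. The Ccl9 and Ccl6 windows abut the gene coordinates given above. The RefSeq start of Ccl3 lies upstream of its gene coordinates there (end at 83649355), and its positions are counted from the RefSeq start.
Ccl9: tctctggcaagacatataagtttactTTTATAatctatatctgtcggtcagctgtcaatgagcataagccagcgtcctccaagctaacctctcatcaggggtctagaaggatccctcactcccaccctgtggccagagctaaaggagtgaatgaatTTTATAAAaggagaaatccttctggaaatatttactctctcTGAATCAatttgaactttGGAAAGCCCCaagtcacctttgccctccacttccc
Ccl6: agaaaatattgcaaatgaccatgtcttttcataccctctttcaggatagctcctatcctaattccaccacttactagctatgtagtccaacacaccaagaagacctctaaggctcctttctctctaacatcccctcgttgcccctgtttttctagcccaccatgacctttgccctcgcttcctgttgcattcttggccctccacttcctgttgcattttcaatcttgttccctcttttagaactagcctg
Ccl3: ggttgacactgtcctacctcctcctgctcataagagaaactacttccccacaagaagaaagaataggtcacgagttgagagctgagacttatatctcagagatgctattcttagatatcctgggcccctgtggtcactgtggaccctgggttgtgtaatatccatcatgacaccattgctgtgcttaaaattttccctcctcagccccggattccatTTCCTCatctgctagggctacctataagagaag
The motifs were searched on both strands. They were the NF-kB consensus, the STAT6 motif TTCNNNNGAA, the STAT motif TTCNNNGAA, the AP-1 motif TGANTCA, the C/EBP motif TTGCNNCAA, the PU.1 motif GAGGAA and the TATA motif TATAAA. The Ccl9 window held an NF-kB match on the reverse strand 35 to 26 bases before the start and an AP-1 match 53 to 47 bases before it, which reads on both strands. It also held TATA matches at 94 to 89 and at 92 to 87 bases, which overlap, and at 224 to 219 bases. The Ccl3 window held a PU.1 match on the reverse strand 33 to 28 bases before the start, and the letters of these motifs were not in the Ccl6 window. Among 32851 RefSeq promoters of the same length, 7.25% held the NF-kB motif, 6.75% AP-1, 12.4% TATA, 23.3% PU.1, 7.02% STAT, 5.85% STAT6 and 1.74% C/EBP.

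Levels are given as FPKM (a fragment count per kilobase of transcript, scaled to library size), a unit inferred from the values. The sum over genes was 288143 to 306581 FPKM per library, the median gene lay at 5.37 to 6.18 FPKM, and the sequencing depth is unknown. Sirt3 K223R replicate 2 with IL-4 stood apart, with a median correlation of 0.98 with its own group. The Sirt3 mRNA was low in all groups (means of 1.32 to 1.56 FPKM), and since K223R changes the protein, its level does not check the labels. Of the macrophage markers, 9 of 9 symbols were in the tables, under 10 gene identifiers that were all summed. They summed to 12582 to 14281 FPKM in Sirt3 K223R cells with IL-4 and 14609 to 17429 FPKM untreated. In wild-type cells they summed to 11976 to 13773 FPKM with IL-4 and 15795 to 17563 FPKM untreated. The sum was lower with IL-4 without overlap in both genotypes, where Fcgr1, Mertk and Lyz2 were called lower and Itgam higher, and Fcgr1 was also called lower in Sirt3 K223R than in wild type with IL-4. The part of this shift in the chemokine results was not tested. A column naming the gene type is present for Sirt3 K223R libraries and absent for wild-type ones, and any difference in how the authors processed the genotypes cannot be told apart from genotype. Because these are bulk samples, fewer cells of a type and less RNA per cell cannot be told apart.

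IL-4 moved the 6 chemokines in different directions. Ccl3 and Ccl4 fell in both genotypes, Ccl6 and Ccl9 rose in both, Ccl7 rose in both, and Ccl2 rose in wild-type cells. With IL-4, Sirt3 K223R cells had less Ccl2, Ccl3, Ccl4 and Ccl7 mRNA than wild-type cells and more Ccl9.

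**Figure D1:**
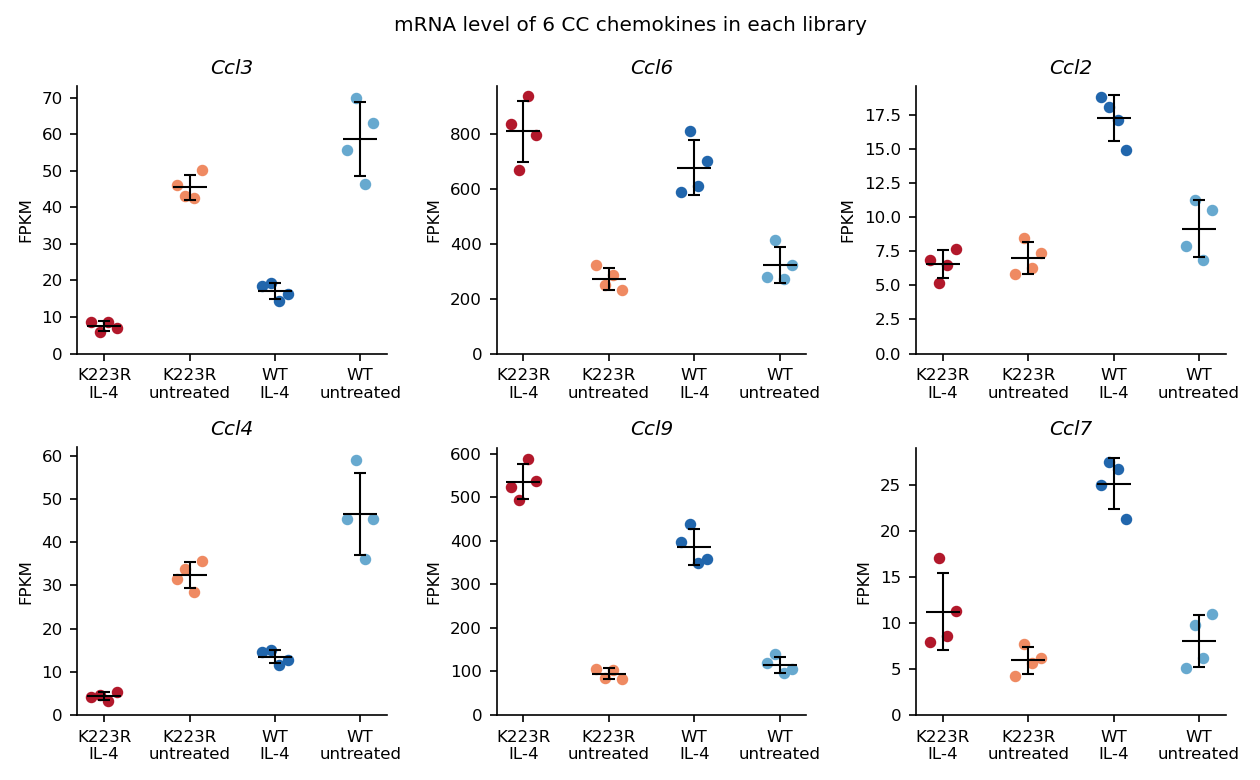
FPKM of the 6 chemokines in each of the 16 libraries, by group, on linear axes that start at 0 and differ between genes; points are libraries, and bars are group means with the SD. Ccl6 and Ccl9 are the highest of the 6 in every group, and Ccl3 and Ccl4 are lowest in Sirt3 K223R cells with IL-4.

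Ccl3, which recruits monocytes, T cells and granulocytes, had 8.64, 5.79, 8.52 and 7.10 FPKM in Sirt3 K223R cells with IL-4, against 46.1, 43.1, 42.6 and 50.2 FPKM in untreated Sirt3 K223R cells. Wild-type cells had 18.6, 19.4, 14.4 and 16.4 FPKM with IL-4, against 55.7, 70.02, 46.4 and 63.0 FPKM untreated. All IL-4 libraries lay below all untreated libraries of the same genotype. On the log2(FPKM + 1) scale Ccl3 fell by 2.46 in Sirt3 K223R cells (SE 0.13, limma adjusted p = 1.41e-09) and by 1.71 in wild-type cells (SE 0.13, limma adjusted p = 1.48e-07). Its untreated mean was 6.05 times the IL-4 mean in Sirt3 K223R cells and 3.42 times in wild-type cells.

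Ccl4, the other macrophage inflammatory protein, had 4.07, 4.71, 3.14 and 5.29 FPKM in Sirt3 K223R cells with IL-4, against 31.5, 33.8, 28.6 and 35.6 FPKM in untreated Sirt3 K223R cells. Wild-type levels were 14.7, 14.99, 11.6 and 12.8 FPKM with IL-4, against 45.4, 59.1, 36.2 and 45.3 FPKM untreated. Again the IL-4 and untreated libraries of a genotype did not overlap. The log2 difference was -2.67 in Sirt3 K223R cells (SE 0.14, limma adjusted p = 1.32e-09) and -1.69 in wild-type cells (SE 0.14, limma adjusted p = 3.55e-07), and the untreated mean was 7.52 and 3.44 times the IL-4 mean. Both genes had the same order of group means, with Sirt3 K223R IL-4 cells lowest, then wild-type IL-4 cells, untreated Sirt3 K223R cells and untreated wild-type cells. For Ccl3 the upper neighbours in that order, the untreated groups, overlapped.

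Ccl6, a mouse chemokine known from macrophages, was the highest of the 6. It had 837, 669, 940 and 795 FPKM in Sirt3 K223R cells with IL-4, against 321, 251, 287 and 230 FPKM in untreated Sirt3 K223R cells. The wild-type values were 589, 811, 609 and 701 FPKM with IL-4, against 279, 414, 272 and 321 FPKM untreated. IL-4 libraries lay above untreated ones without overlap in both genotypes, and the genotypes overlapped under each condition. The log2 rise was 1.57 in Sirt3 K223R cells (SE 0.15, limma adjusted p = 6.03e-07) and 1.08 in wild-type cells (SE 0.15, limma adjusted p = 5.18e-05), or 2.98-fold and 2.11-fold on the means. By mean level Ccl6 ranked 37 among the 10920 genes in Sirt3 K223R cells with IL-4 and 49 in wild-type cells with IL-4, against 120 and 96 in the untreated cells of these genotypes.

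Ccl9, a Ccr1 ligand of the mouse also known from osteoclasts, had 523, 493, 589 and 537 FPKM in Sirt3 K223R cells with IL-4, against 107, 84.6, 103 and 82.3 FPKM in untreated Sirt3 K223R cells. Wild-type libraries had 398, 439, 350 and 358 FPKM with IL-4, against 120, 139, 95.5 and 105 FPKM untreated. The 4 IL-4 libraries of Sirt3 K223R cells were the highest of all 16, and the untreated groups overlapped. The log2 rise was 2.50 in Sirt3 K223R cells (SE 0.12, limma adjusted p = 2.85e-10) and 1.75 in wild-type cells (SE 0.12, limma adjusted p = 3.05e-08), or 5.68-fold and 3.36-fold on the means. In rank of mean level Ccl9 stood at 68 in Sirt3 K223R IL-4 cells and 93 in wild-type IL-4 cells, against 439 and 333 in the untreated cells.

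Ccl2, the main ligand of the monocyte receptor Ccr2, had 6.89, 5.204, 6.48 and 7.68 FPKM in Sirt3 K223R cells with IL-4, against 5.85, 8.47, 6.30 and 7.40 FPKM in untreated Sirt3 K223R cells. Those groups overlapped. In wild-type cells it had 18.9, 18.1, 17.2 and 14.97 FPKM with IL-4, against 7.93, 11.3, 6.87 and 10.5 FPKM untreated, and the wild-type IL-4 libraries were the highest of all 16. Ccl2 rose by 0.87 on the log2 scale in wild-type cells (SE 0.14, limma adjusted p = 0.000342), or 1.89-fold on the means. In Sirt3 K223R cells the difference was -0.08 (95% confidence interval -0.39 to 0.23, limma adjusted p = 0.682, exact permutation p = 0.629, n = 4 each), and it turned to 0.02 with median-ratio scaling.

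Ccl7, which shares Ccr2 with Ccl2, had 7.91, 17.1, 8.56 and 11.3 FPKM in Sirt3 K223R cells with IL-4, against 4.21, 7.78, 5.65 and 6.24 FPKM in untreated Sirt3 K223R cells. The wild-type libraries had 25.03, 27.5, 26.8 and 21.3 FPKM with IL-4, against 5.14, 9.75, 6.23 and 11.01 FPKM untreated. The wild-type IL-4 libraries were again the highest of the 16, while Sirt3 K223R IL-4 libraries overlapped untreated wild-type libraries. Ccl7 rose by 0.78 in Sirt3 K223R cells (SE 0.24, limma adjusted p = 0.0157) and by 1.58 in wild-type cells (SE 0.24, limma adjusted p = 0.00013), or 1.88-fold and 3.13-fold on the means. The call in Sirt3 K223R cells was lost without IL-4 replicate 2, the library with 17.1 FPKM (log2 difference 0.57, adjusted p = 0.0526), and without untreated replicate 1 (adjusted p = 0.0535).

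In all, limma called 5 of the 6 chemokines with IL-4 in Sirt3 K223R cells (3 higher, 2 lower), where it called 42.6% of all tested genes (13.5% higher, 29.1% lower). In wild-type cells it called all 6 (4 higher, 2 lower), against 26% of all tested genes (10.7% higher, 15.3% lower). The median log2 difference of the 6 was 0.35 in Sirt3 K223R and 0.97 in wild-type cells, beside -0.09 and -0.04 over all tested genes. Each of these 11 called differences had groups without overlap and an exact permutation p of 0.0286, the smallest that 4 against 4 can give. Over all tested genes, 40.6% in Sirt3 K223R and 28.1% in wild-type cells had groups without overlap. Median-ratio scaling turned the split of all calls to 1985 higher and 1827 lower in Sirt3 K223R cells, against 1332 and 2877 without it, and to 1363 and 1185 in wild-type cells, against 1057 and 1518. It left the direction and call of each of the 11 called differences in place.

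**Figure D2:**
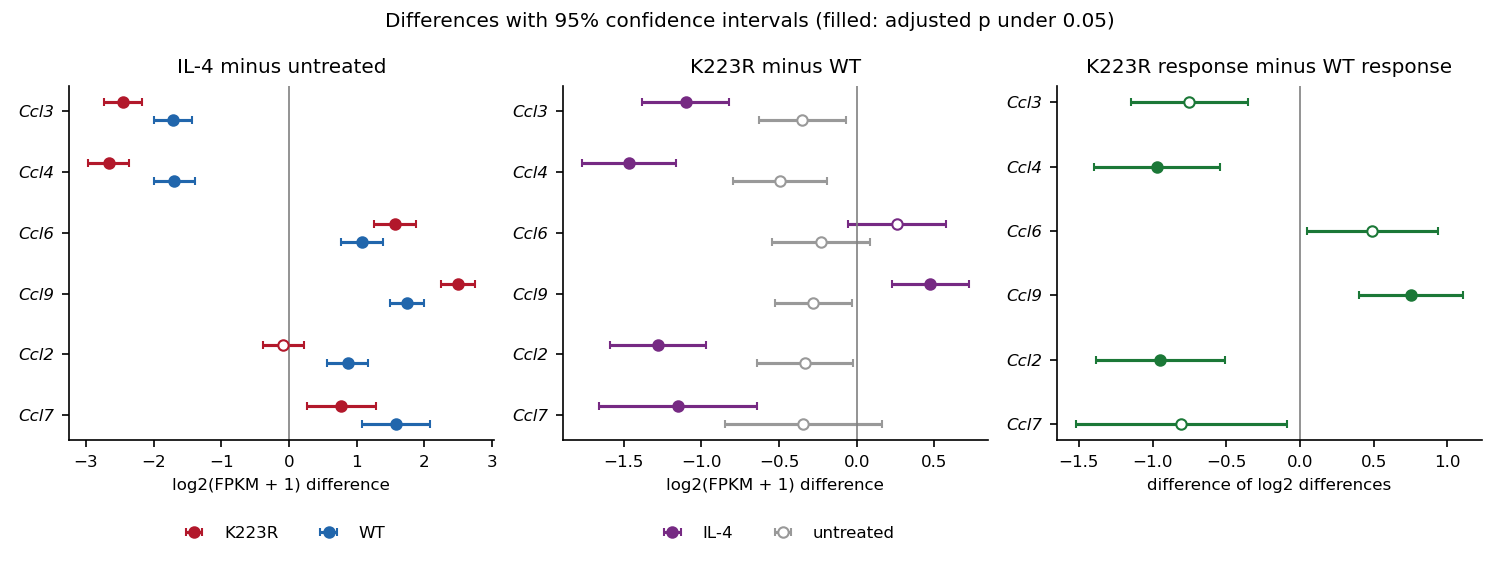
Log2 differences of the 6 chemokines in the 5 comparisons, with 95% confidence intervals as lines; filled points have a limma adjusted p under 0.05. Ccl3 and Ccl4 lie below 0 and Ccl6 and Ccl9 above 0 in the IL-4 comparison of each genotype, and with IL-4 Ccl2, Ccl3, Ccl4 and Ccl7 lie below 0 for Sirt3 K223R against wild type.

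Among IL-4 cells, Sirt3 K223R had lower levels than wild type for 4 of the 6 chemokines and a higher level for 1. The mean FPKM of Ccl2 was 6.56 ± 1.03 in Sirt3 K223R cells and 17.3 ± 1.69 in wild-type cells (SD, n = 4 each). Ccl3 averaged 7.51 ± 1.35 FPKM in Sirt3 K223R and 17.2 ± 2.25 FPKM in wild-type cells, Ccl4 4.30 ± 0.922 and 13.5 ± 1.60 FPKM, and Ccl7 11.2 ± 4.19 and 25.1 ± 2.77 FPKM. Wild-type cells thus held 2.24 to 3.14 times as much of these 4 mRNAs, and the genotypes did not overlap, as for 18.2% of all tested genes. The log2 differences were -1.46 for Ccl4 (limma adjusted p = 2.54e-05), -1.28 for Ccl2 (7.03e-05), -1.15 for Ccl7 (0.00503) and -1.10 for Ccl3 (0.000113). Ccl9 averaged 535 ± 40.1 FPKM in Sirt3 K223R cells and 386 ± 40.8 FPKM in wild-type cells, 1.39-fold higher (log2 difference 0.47, limma adjusted p = 0.013), also without overlap. Ccl6 averaged 810 ± 112 and 678 ± 101 FPKM, which overlapped (log2 difference 0.26, 95% confidence interval -0.06 to 0.57, limma adjusted p = 0.253). Limma called 15% of all tested genes in this comparison, 5% higher and 10% lower in Sirt3 K223R cells. The median of the 6 log2 differences was -1.13, beside -0.05 over all tested genes. Median-ratio scaling gave 819 higher and 614 lower calls over all genes, against 495 and 992 without it, and the calls of the 6 chemokines were the same in number and direction.

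Without IL-4, limma called 0 of the 6 chemokines and 0% of all tested genes between genotypes, with 737 genes at an unadjusted p under 0.05. The mean FPKM of Ccl3 was 45.5 ± 3.48 in untreated Sirt3 K223R cells and 58.8 ± 10.1 in untreated wild-type cells (SD, n = 4 each). For Ccl6 these means were 272 ± 40.1 and 322 ± 65.4, for Ccl9 94.2 ± 12.6 and 115 ± 19.0, for Ccl2 7.00 ± 1.18 and 9.16 ± 2.10, and for Ccl7 5.97 ± 1.48 and 8.03 ± 2.80, and all of these groups overlapped. Ccl4 was 28.6 to 35.6 FPKM in Sirt3 K223R and 36.2 to 59.1 FPKM in wild-type libraries, without overlap (log2 difference -0.49, exact permutation p = 0.0286, n = 4 each, limma adjusted p = 0.376). Of all tested genes, 2.66% had Sirt3 K223R libraries entirely below wild-type libraries. All 6 means were lower in Sirt3 K223R cells, with log2 differences of -0.49 to -0.23 (median -0.34, beside 0.00 over all tested genes). None passed the test after adjustment. The 95% confidence intervals are not adjusted over genes. They lay below 0 for Ccl4 (-0.80 to -0.19), Ccl3 (-0.63 to -0.07), Ccl9 (-0.53 to -0.03) and Ccl2 (-0.64 to -0.02). Those of Ccl6 (-0.54 to 0.08) and Ccl7 (-0.85 to 0.16) held 0. The untreated libraries also enter the IL-4 comparisons, and the IL-4 libraries enter both kinds of comparison, so these results are not independent of each other.

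The difference between the IL-4 responses was tested as an interaction. Limma called 3 of the 6, against 2.14% of all tested genes. The response of Ccl4 was more negative in Sirt3 K223R cells (-2.67) than in wild-type cells (-1.69), a difference of -0.97 (SE 0.20, adjusted p = 0.0225). For Ccl2 the responses of -0.08 and 0.87 differed by -0.95 (SE 0.20, adjusted p = 0.0271), and for Ccl9 the responses of 2.50 and 1.75 differed by 0.75 (SE 0.16, adjusted p = 0.0281). Ccl3 (-0.75, adjusted p = 0.0513), Ccl7 (-0.80, adjusted p = 0.248) and Ccl6 (0.49, adjusted p = 0.261) were not called. The median of the 6 was -0.78, beside -0.05 over all tested genes, of which median-ratio scaling called 134 higher and 93 lower, against 77 and 135 without it.

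These interaction calls lie close to the threshold. Leaving out 1 library at a time left 0 to 4 of the 6 called: 0 without untreated Sirt3 K223R replicate 2, and 1, Ccl4, without untreated wild-type replicate 1, untreated Sirt3 K223R replicate 4 or Sirt3 K223R IL-4 replicate 3. The call for Ccl2 was also lost without wild-type IL-4 replicate 3, and adjusted p reached 0.0585. That for Ccl9 was also lost without wild-type IL-4 replicates 3 and 4 or Sirt3 K223R IL-4 replicate 4, and adjusted p reached 0.0652. Ccl3 gained a call without untreated wild-type replicate 2 (adjusted p = 0.0378), wild-type IL-4 replicate 3 (0.0461) or Sirt3 K223R IL-4 replicate 1 (0.0485), and with a pseudocount of 0.1 (0.0417). With the replicate number as a block, 4 were called: Ccl2 lost its call (adjusted p = 0.0548) and Ccl3 (0.021) and Ccl6 (0.0396) gained one. That block also paired the Sirt3 K223R libraries, which were not taken as paired.

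The balance among the 6 mRNAs shifted with these changes. Summed, they reached 1375 ± 147 FPKM in Sirt3 K223R cells with IL-4 and 457 ± 46.6 FPKM in untreated Sirt3 K223R cells (SD, n = 4 each). The sum in wild-type cells was 1137 ± 134 FPKM with IL-4 and 559 ± 104 FPKM untreated. Ccl3 and Ccl4 made up 0.863% ± 0.0774 of that sum in Sirt3 K223R IL-4 cells and 17.2% ± 2.76 in untreated Sirt3 K223R cells, and 2.71% ± 0.280 and 18.8% ± 0.884 in the wild-type cells with and without IL-4. Ccl6 and Ccl9 made up 97.8% ± 0.442 and 79.9% ± 3.41 in Sirt3 K223R cells with and without IL-4, and 93.5% ± 0.669 and 78.1% ± 1.16 in wild-type cells. Ccl2 and Ccl7 stayed at or below 4.27% in all 16 libraries.

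Within each pair the ratio was not constant. Ccl9 stood at 0.666 ± 0.0527 of Ccl6 in Sirt3 K223R cells with IL-4 and at 0.347 ± 0.0145 in untreated Sirt3 K223R cells. In wild-type cells it stood at 0.575 ± 0.0716 with IL-4 and 0.361 ± 0.0476 untreated, so libraries with IL-4 lay above untreated libraries in both genotypes. Ccl4 over Ccl3 was 0.789 ± 0.0151 in wild-type cells with IL-4 and 0.790 ± 0.0542 untreated, while in Sirt3 K223R cells with IL-4 it spread from 0.369 to 0.814. Ccl7 over Ccl2 was 1.15 to 1.47 in 3 Sirt3 K223R IL-4 libraries and 3.29 in replicate 2, against 0.720 to 0.918 in untreated Sirt3 K223R cells. In wild-type cells it was 1.33 to 1.56 with IL-4 and 0.648 to 1.04 untreated.

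Ccl3 and Ccl4, which fell with IL-4, lie beside Ccl6 and Ccl9, which rose. Of 6 genes within 100 kb of a member that are not chemokines, 4 were tested, and 2 were called with IL-4 in Sirt3 K223R cells and 0 in wild-type cells, beside 42.6% and 26% of all tested genes. Taf15, an RNA-binding protein gene, fell by 0.23 with IL-4 in Sirt3 K223R cells (limma adjusted p = 0.0337) and differed by 0.00 in wild-type cells (adjusted p = 0.995). Heatr6 fell by 0.25 in Sirt3 K223R cells (adjusted p = 0.0104) and differed by -0.14 in wild-type cells (adjusted p = 0.155). Wfdc17, expressed at 86.3 to 142 FPKM by group mean, differed by -0.32 in both genotypes and was not called (adjusted p = 0.0792 in Sirt3 K223R and 0.11 in wild-type cells). Wfdc21 was not called either (-0.11 and -0.48), Wfdc18 was too low to be tested, and Heatr9 was listed at 0 in all libraries. The chemokine neighbours Ccl5, Ccl8 and Ccl12 are described with the other CC chemokines.

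**Figure D3:**
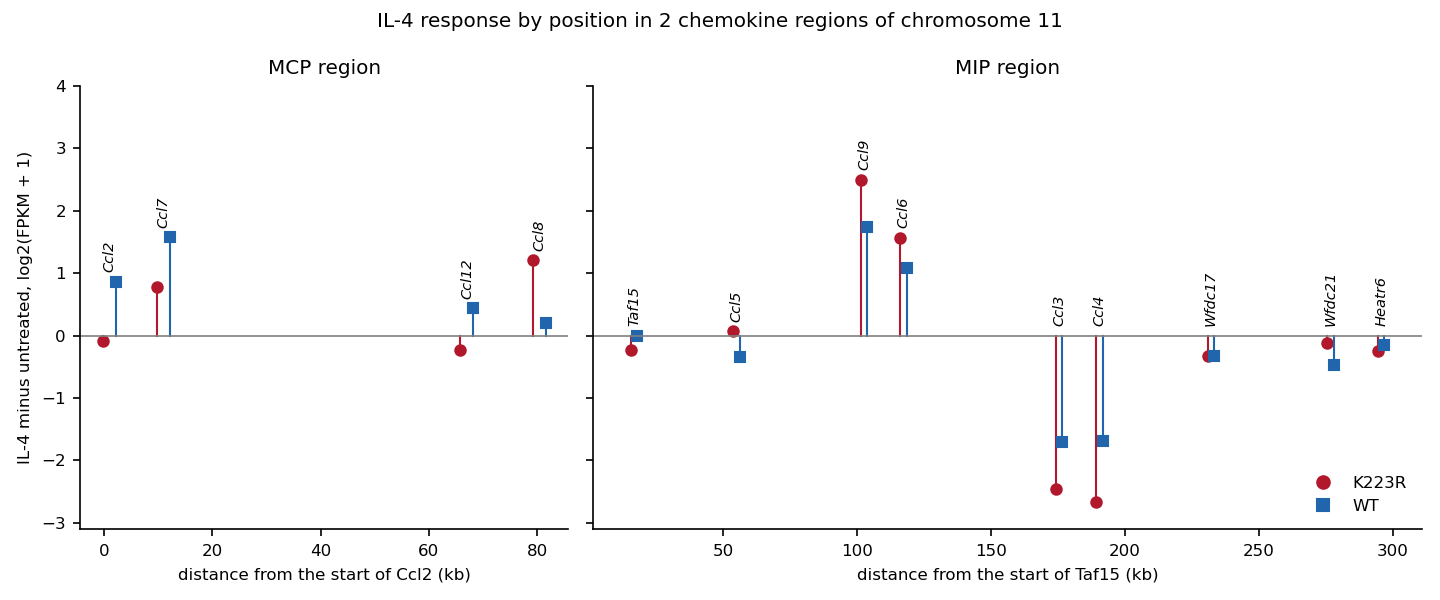
IL-4 log2 difference of each tested gene by distance in kb along the clusters of monocyte chemoattractants (MCP) and macrophage inflammatory proteins (MIP), with the points of Sirt3 K223R and wild-type cells set slightly apart. Ccl3 and Ccl4 lie far below 0 and Ccl6 and Ccl9 above 0 at neighbouring positions, while Taf15, Wfdc17 and Heatr6 lie within 0.33 of 0. In wild-type cells Wfdc21 lies at -0.48 and Ccl5 at -0.35, and neither was called.

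The members paired by the likeness of their levels across the 16 libraries, given as Pearson's r of log2(FPKM + 1). The libraries share 4 group means, so these values are descriptions. Ccl3 and Ccl4 had r = 0.98, Ccl6 and Ccl9 r = 0.98, and Ccl2 and Ccl7 r = 0.79. The last pair was looser, since by rank of r among tested genes Ccl7 stood at 74 for Ccl2 and Ccl2 at 111 for Ccl7. Ccl6 stood at 20 for Ccl9. Ccl7 also had r = 0.64 with Ccl6 and 0.65 with Ccl9. The genes nearest to Ccl3 were the drug exporter gene Abcb1b, the Fc receptor gene Fcgr1 and the cytokine gene Tnf, each at 0.98. Among the nearest to Ccl4 were Sh3bp5 (0.99) and Ccl3 itself. Ccl6 had Ccl9, the early response gene Ier3 and Prrg1 nearest (each 0.98), and Ccl9 had the guanine deaminase gene Gda, Olfm1 and Lrmp (each 0.99). For Ccl2 the nearest were the mitochondrial chaperonin genes Hspe1 (0.94) and Hspd1 (0.90) and the splicing factor gene Srsf3 (0.93). For Ccl7 they were the nucleotide kinase gene Cmpk1 (0.93), the lactate dehydrogenase gene Ldha (0.93) and the proteasome subunit gene Psma3 (0.92).

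Of 12 other CC chemokines listed, 7 were in the tables and 6 were tested. With IL-4, limma called 13.5% of all tested genes higher and 29.1% lower in Sirt3 K223R cells, and 10.7% and 15.3% in wild-type cells. Of the 6 tested here, it called 4 higher and 0 lower in Sirt3 K223R cells, and 3 higher and 0 lower in wild-type cells. Ccl17 and Ccl22, Ccr4 ligands known as IL-4 target genes, were among them. Ccl17 averaged 2.33 ± 0.501 FPKM in Sirt3 K223R cells with IL-4 and 3.34 ± 1.10 FPKM in wild-type cells with IL-4 (SD, n = 4), and was listed at 0 in all 8 untreated libraries. The log2 difference with IL-4 for Ccl22 was 0.98 in Sirt3 K223R and 1.36 in wild-type cells. Ccl24, an eosinophil chemoattractant, had 5.46, 2.03, 6.25 and 3.50 FPKM in Sirt3 K223R IL-4 cells, against 1.59, 1.29, 1.30 and 1.32 FPKM in wild-type IL-4 cells. Its genotypes did not overlap with IL-4 (log2 difference 1.08, limma adjusted p = 0.0029), as for 18.2% of all tested genes. It was the only other CC chemokine called between genotypes with IL-4, beside 15% of all tested genes. Ccl8, a neighbour of Ccl7, averaged 7.52 ± 0.866 FPKM in Sirt3 K223R cells with IL-4 and 3.02 ± 2.11 FPKM in untreated ones (log2 difference 1.21, adjusted p = 0.0404), a call lost in 7 of 8 leave-outs (adjusted p up to 0.123) and with a pseudocount of 0.1 (0.0532). Its difference in wild-type cells was 0.20 (adjusted p = 0.798). Ccl5 and Ccl12 were called in 0 of the 5 comparisons, and Ccl25 was too low to be tested. The median log2 difference with IL-4 of the 6 tested was 1.10 in Sirt3 K223R and 0.69 in wild-type cells. Over all tested genes these medians were -0.09 and -0.04.

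Receptors for the chemokines were listed next, and 4 of 6 were tested. Ccr1, which binds Ccl3, Ccl6, Ccl7 and Ccl9, averaged 34.6 ± 3.95 FPKM in Sirt3 K223R cells with IL-4 and 19.4 ± 1.42 FPKM untreated, and 45.8 ± 8.63 and 21.02 ± 3.10 FPKM in wild-type cells with and without IL-4. It rose by 0.80 in Sirt3 K223R cells (limma adjusted p = 0.000168) and by 1.08 in wild-type cells (adjusted p = 1.61e-05). Ccr2, at 0.932 to 1.54 FPKM by group mean, was called in 0 comparisons. Ccr3 differed by -0.26 in Sirt3 K223R cells (adjusted p = 0.0713) and fell by 0.42 in wild-type cells (adjusted p = 0.00985). The atypical receptor Ccrl2, which binds chemerin, fell by 0.83 in Sirt3 K223R cells (adjusted p = 0.025) and differed by -0.74 in wild-type cells (adjusted p = 0.0637). Its call was lost without untreated Sirt3 K223R replicate 2 (adjusted p = 0.0575) or IL-4 replicate 1 (0.0508). Between genotypes 0 of the 4 were called, beside 15% of all tested genes with IL-4 and 0% without it. The median of the 4 was -0.26 with IL-4, beside -0.05 over all tested genes.

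**Figure D4:**
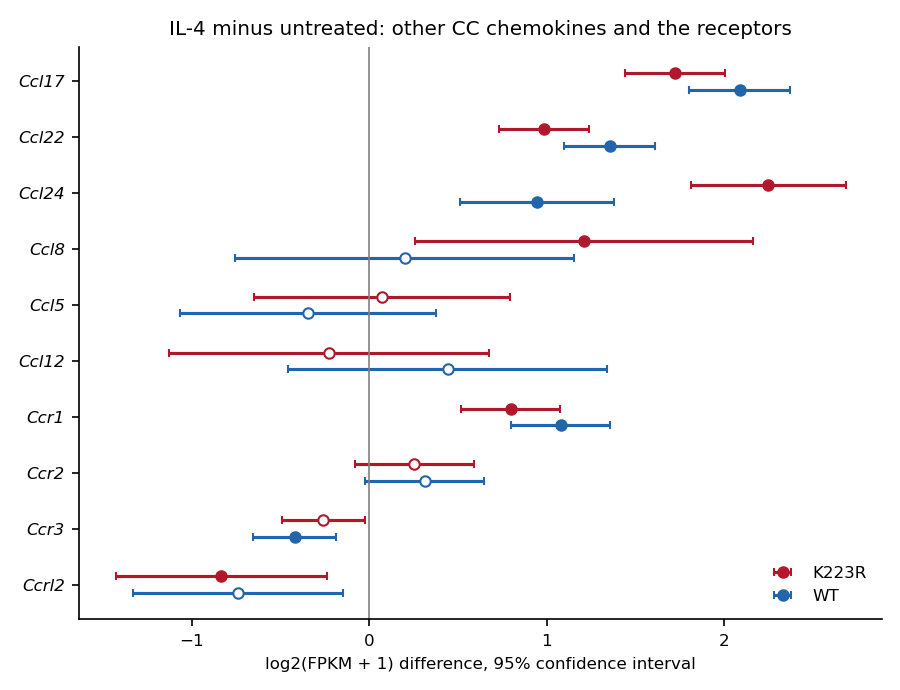
IL-4 log2 difference of the other CC chemokines and the receptors in Sirt3 K223R and wild-type cells; filled points have a limma adjusted p under 0.05. Ccl17, Ccl22, Ccl24 and Ccr1 lie above 0 and called in both genotypes.

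Among CXC and CX3C chemokines, 4 of 14 listed were tested. Cxcl2, a neutrophil chemoattractant, averaged 0.221 ± 0.116 FPKM in Sirt3 K223R IL-4 cells and 0.907 ± 0.235 FPKM in wild-type IL-4 cells, against 2.46 ± 0.551 and 3.81 ± 0.970 FPKM in the untreated cells of these genotypes (SD, n = 4). Its IL-4 difference was -1.49 in Sirt3 K223R and -1.32 in wild-type cells, and with IL-4 it was lower in Sirt3 K223R than in wild type (-0.64, limma adjusted p = 0.00967). Cxcl16, a membrane-bound chemokine, fell by 0.66 and 0.52, and Cxcl14 fell by 1.501 in Sirt3 K223R cells (adjusted p = 0.000366) and differed by -0.70 in wild-type cells (adjusted p = 0.0689). The platelet chemokine Pf4 rose by 0.94 in Sirt3 K223R cells (adjusted p = 0.039). That call was lost in 7 of 8 leave-outs and with quantile normalization. Cxcl2 was the only one of the 4 called between genotypes with IL-4, beside 15% of all tested genes. Without IL-4, 0% of all tested genes were called.

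NF-kB subunits and inhibitors were listed because NF-kB drives several of the 6 chemokines. Of 16 tested, 3 rose and 9 fell with IL-4 in Sirt3 K223R cells, and 2 rose and 6 fell in wild-type cells. Of all tested genes, 42.6% and 26% were called. The median log2 differences of the 16 were -0.24 and -0.09, beside -0.09 and -0.04 over all tested genes. The wild-type fall of the kinase gene Ikbkb (-0.16) lost its call with the replicate block (adjusted p = 0.061), in 6 of 8 leave-outs (adjusted p up to 0.142), with median-ratio scaling (0.134), with quantile normalization (0.13) and in a fit of the wild-type groups alone (0.0958). In Sirt3 K223R cells the call of Bcl3 was lost with median-ratio scaling (0.0638) and that of Tnfaip3 in 2 of 8 leave-outs (up to 0.0543). Nfkbia, which encodes the inhibitor that holds NF-kB in the cytoplasm and is itself an NF-kB target, averaged 29.7 ± 2.48 FPKM in Sirt3 K223R IL-4 cells and 42.2 ± 6.69 FPKM in wild-type IL-4 cells. It fell with IL-4 by 0.97 in Sirt3 K223R and 0.52 in wild-type cells, and with IL-4 was lower in Sirt3 K223R than in wild type (-0.48, limma adjusted p = 0.0029). Nfkbiz, a nuclear cofactor of the same family, fell by 1.43 and 1.19, and with IL-4 differed by -0.41 between genotypes (adjusted p = 0.00539). Nfkbid fell by 0.59 in Sirt3 K223R cells. The subunit genes Rel (0.58 and 0.76) and Nfkb1 (0.29 and 0.50) rose in Sirt3 K223R and wild-type cells, and Nfkb2 rose by 0.46 in Sirt3 K223R cells. Between genotypes with IL-4, 1 of the 16 (Nfkb2) was called higher and 3 lower in Sirt3 K223R cells, beside 5% and 10% of all tested genes. In a fit of those groups alone Nfkb2 and Nfkbid were not called (adjusted p = 0.1 and 0.0983).

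Genes of chemokine mRNA decay and stability split in direction. Of 11 tested, 2 rose and 4 fell with IL-4 in Sirt3 K223R cells, and 3 rose and 3 fell in wild-type cells. Of all tested genes, 42.6% and 26% were called. The median log2 differences of the 11 were -0.14 and -0.07, beside -0.09 and -0.04 over all tested genes. The wild-type rise of Zfp36 (0.19) lost its call in 6 of 8 leave-outs (adjusted p up to 0.102) and with quantile normalization (0.0556), and the wild-type fall of Mapkapk2 (-0.18) with median-ratio scaling (0.101). In Sirt3 K223R cells the fall of Rc3h1 (-0.21) lost its call in 2 of 8 leave-outs and in 3 other alternatives (adjusted p up to 0.154). Zfp36l1, which binds AU-rich elements and promotes decay, rose by 1.39 in Sirt3 K223R cells (limma adjusted p = 8.91e-06) and 0.73 in wild-type cells (adjusted p = 0.00436). Its relative Zfp36l2 fell by 0.47 in Sirt3 K223R and 0.48 in wild-type cells. Zc3h12a, an endonuclease that degrades cytokine mRNAs, rose by 0.44 in Sirt3 K223R and 0.68 in wild-type cells, and Dusp1, the phosphatase that limits p38 signalling, fell by 1.03 in both. Between genotypes with IL-4, 0 of the 11 were called higher and 2 lower in Sirt3 K223R cells, beside 5% and 10% of all tested genes. Zfp36 (tristetraprolin) averaged 30.1 ± 2.55 FPKM in Sirt3 K223R IL-4 cells and 37.0 ± 1.85 FPKM in wild-type IL-4 cells (log2 difference -0.29, adjusted p = 0.00588). Hnrnpd differed by -0.35 (adjusted p = 0.0371), a call kept in 1 of 8 leave-outs.

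Among genes whose products cleave or hold chemokines, 8 of 11 were tested. With IL-4, 2 rose and 1 fell in Sirt3 K223R cells, and 3 rose and 1 fell in wild-type cells, beside 42.6% and 26% of all tested genes called. The rise of Mmp9 in Sirt3 K223R cells (0.50, adjusted p = 0.0279) lost its call in 5 of 8 leave-outs (adjusted p up to 0.0638) and with a pseudocount of 0.1 (0.0516). The wild-type rise of Mmp12 (0.29) was 0.05 with quantile normalization (adjusted p = 0.739). The heparan sulfate carrier Sdc4 rose by 1.36 in Sirt3 K223R and 1.44 in wild-type cells, and the membrane protease Mmp14 fell by 1.25 in Sirt3 K223R and 0.91 in wild-type cells. Srgn, the core protein of a granule proteoglycan, rose by 1.17 in wild-type cells (limma adjusted p = 0.00219) and differed by 0.57 in Sirt3 K223R cells (adjusted p = 0.0751). Between genotypes with IL-4, 2 of the 8 were called higher and 1 lower in Sirt3 K223R cells, beside 5% and 10% of all tested genes. Mmp9, a gelatinase, averaged 4.83 ± 0.322 FPKM in Sirt3 K223R IL-4 cells and 2.02 ± 0.885 FPKM in wild-type IL-4 cells (log2 difference 0.99, adjusted p = 0.0016). Sdc3 differed by 0.25 (adjusted p = 0.0143). Sdc4 differed by -0.41 (adjusted p = 0.0417), a call kept in 1 of 8 leave-outs.

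Markers of other cells moved beside these results. The summed level of 6 neutrophil markers in the tables, of 9 listed, was 40.4 to 63.9 FPKM in Sirt3 K223R IL-4 cells and 105 to 145 FPKM in untreated Sirt3 K223R cells. In wild-type cells it was 53.5 to 105 FPKM with IL-4 and 78.8 to 165 FPKM untreated. Of 4 platelet and megakaryocyte markers listed, Pf4 and Ppbp were in the tables. Their sum was 249 to 324 FPKM in Sirt3 K223R cells with IL-4 and 102 to 181 FPKM untreated. In wild-type cells it was 93.4 to 238 FPKM with IL-4 and 44.5 to 160 FPKM untreated. Nearly all of that sum was Pf4, which alone had 249 to 324 FPKM in Sirt3 K223R cells with IL-4. Ppbp was too low to be tested. Stromal markers, 3 of 5, summed to 0.920 to 2.06 and 5.31 to 6.35 FPKM in Sirt3 K223R cells with and without IL-4, and to 1.31 to 2.45 and 3.54 to 4.69 FPKM in wild-type cells. Monocyte markers, 4 of 4, summed to at most 2.54 FPKM, and eosinophil markers, 3 of 4, to 10.3 to 18.8 FPKM, in all libraries. The dendritic cell list was represented by Batf3 alone, at 11.2 to 13.1 FPKM in Sirt3 K223R cells with IL-4 and 1.09 to 1.29 FPKM untreated, and at 7.97 to 11.7 and 0.612 to 1.91 FPKM in wild-type cells with and without IL-4. Erythroid markers were represented by Car2 alone, at 0.903 to 1.22 and 0.0676 to 0.124 FPKM in Sirt3 K223R cells with and without IL-4 and at 0.904 to 1.34 and 0 to 0.202 FPKM in wild-type cells, called higher with IL-4 in both. The B cell list was represented by Cd79b alone, at most 2.07 FPKM. The part of these markers in the chemokine results was not tested. Markers of T and NK cells and of mast cells and basophils are not analysed here.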

How the data were processed

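Polyadenylated or ribosome-depleted RNA of 16 macrophage libraries was sequenced as stranded paired-end libraries, per the labels' protocols. The sources used here do not give which enrichment each library had, nor the aligner, counting tool or strand setting. The deposited value per gene was taken as FPKM. The authors' file headers name no unit, and it cannot be told apart from TPM over more genes. No read counts were recovered from low values (of 334 low genes compared between 2 libraries, at most 4 shared a ratio to 3 decimals). That check cannot tell whether the values came from whole reads, since a low gene may hold several. Depth is thus unknown, and replicate spread is the measure of precision. Of the gene identifiers, 9510 occur in GENCODE M21 (GRCm38) in the same version, and all 9510 have equal coordinates there. The 1 blank line of each file was dropped.

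The scale for testing was log2(FPKM + 1), which understates changes of low genes. Genes at 1 or more in at least 4 libraries were tested (9891). A model of 4 group means over all 16 libraries was fitted with limma 3.58.1 (R 4.3.3, trended empirical Bayes) for 5 contrasts. The Benjamini-Hochberg adjustment ran over all tested genes, and an adjusted p under 0.05 was called. Adjusted p-values of genes are limma's. Single members were also compared by a 2-sided exact permutation test. Python 3.11.15 with pandas 2.3.3, scipy 1.17.1 and matplotlib 3.10.9 was used. The fit was tested on simulated data.

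The members and gene lists were chosen with earlier results of these data known. Named beside the members were up to 4 called genes per list and comparison, all listed CC chemokines and receptors in the files, the 3 nearest genes by Pearson's r, genes within 100 kb and Sirt3. A few items are not reported here.

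Same-numbered untreated and IL-4 libraries were checked for pairing by the correlation of their deviations from group means. All 4 wild-type pairs lay above 0.1 (0.2864, 0.122, 0.1001 and 0.1161). Each also lay above its highest correlation with another number (-0.0501 to 0.0651), which was taken as paired. Sirt3 K223R pairs lay between -0.0452 and 0.1273, with highest values for another number of 0.0357 to 0.1548. They were not taken as paired. The main fit held no block, and the replicate block was fitted for both genotypes. For the comparisons between genotypes the block was the replicate number alone, which joined same-numbered wild-type and Sirt3 K223R libraries. Those libraries were not taken as paired (same-number correlations of -0.1663 to 0.0427). The block is given beside a result where it changed a call. Alternatives were median-ratio scaling, quantile normalization, a pseudocount of 0.1, no filter, each contrast's groups alone, the replicate block and leaving out each library.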

Additional observations from a re-analysis of the deposited data

Results flagged for a closer look

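For 4 chemokines the IL-4 response differed between genotypes by limma's interaction test. The difference of the log2 responses, Sirt3 K223R minus wild type, was -0.95 for Ccl2, -0.97 for Ccl4 and 0.75 for Ccl9, with the calls lost in the leave-outs named above. It was 1.30 for Ccl24 (adjusted p = 0.0295), whose call was lost in 9 of 16 leave-outs.

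Among 72 sets of 4 libraries (a CC chemokine gene, a receptor gene or Sirt3 in a group), 4 had a lone value by Dixon's criterion, and chance flags about 1 in 20 sets. Ccl17 in wild-type IL-4 replicate 3 was high at 4.98 FPKM, and Ccl24 in wild-type IL-4 replicate 1 was high at 1.59 FPKM. Ccrl2 in untreated wild-type replicate 1 was high at 31.2 FPKM, and Ccl25 in untreated wild-type replicate 3 was low at 0.665 FPKM.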

How the results depend on the processing

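Over all alternatives, 436 of 462 values of the 6 chemokines kept their direction and side of the threshold. Of the rest, 16 lost the call, 6 gained it and 4 changed sign. All 4 were the difference of Ccl2 with IL-4 in Sirt3 K223R cells, uncalled at -0.08, which was 0.0162 with median-ratio scaling, 0.0126 with quantile normalization and -0.152 to 0.0105 in leave-outs. Fitting each contrast's groups alone called 703 genes between genotypes with IL-4, against 1487, and 1 without IL-4, against 0. With the replicate block, the interaction called 326 genes, against 212, and 4 of the 6 chemokines. The block changed no other call of the 6. Leaving out 1 library gave 3651 to 4128 genes with IL-4 in Sirt3 K223R cells (4 to 5 of the 6 chemokines) and 2189 to 2519 in wild-type cells. Between genotypes it gave 1201 to 1573 with IL-4 and 0 to 2 without. The interaction called 112 to 344 genes and 0 to 4 of the 6. Its count moved most without untreated Sirt3 K223R replicate 2 (112) or 3 (136), Sirt3 K223R IL-4 replicate 2 (344) or 3 (116), or wild-type IL-4 replicate 3 (130) or 4 (131). The cause was not tested. Depth is unknown, so low values have no counting interval.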
